A study of Mus musculus with 2 samples.

Results

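The extracellular matrix genes, the proteases and inhibitors that act on the matrix and the integrin and syndecan receptors that bind it were examined in the livers of normal and type 2 diabetic mice. Members were taken by gene name: symbols that begin with Col, Lam, Itg, Timp, Mmp, Adamts or Sdc followed by the letters and numbers of their families, plus Fn1, Vtn, Dcn, Lum, Bgn, Sparc, Nid1 and Hspg2. This gave 53 members among the 8551 genes of the table. RefSeq annotates 149 protein-coding mouse genes with such names, and the other 96 were not analysed here. The normal library came from wild type male mice and the diabetic library from male db/db mice, which carry a defective leptin receptor and become obese and hyperglycaemic. Both groups were 9 weeks old on a C57BL/6 background, fed chow freely, and their livers were taken early in the light cycle. The leptin receptor gene was not among the genes analysed, so the genotype was not checked from the tags.

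The study sequenced a digital gene expression library for each group, 1 in all per group, and differences therefore lack a replicate check, and every test given here compares these libraries and not the conditions. The methods do not state how many mice were pooled in a library. They name more than 1 supplier of mice without saying which group came from which, so a supplier difference cannot be told apart from the genotype. A level is given in TPM, the number of tags of a gene per 1000000 clean tags, and each transcript is taken to give 1 tag, so TPM values of different genes can be compared without a length correction. The libraries held 10278531 clean tags for normal and 13508232 for diabetic, which makes 1 read worth 0.0973 TPM and 0.0740 TPM. Intervals are 95% intervals of counting error alone. A gene was called higher or lower at 1.5-fold or more, and called with FDR when an exact binomial test of its reads also gave an FDR under 0.001. Tags of the listed genes made up 37.1% (normal) and 44.4% (diabetic) of the clean tags, and the median log2 ratio of all listed genes, diabetic over normal, was 0.25. Ratios below are on the deposited scale, and other scalings of the libraries lower every log2 ratio by 0.25 to 0.31.

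In liver, the matrix is sparse and lies mainly in the portal tracts, in the capsule and in the space of Disse between sinusoids and hepatocytes. Stellate cells and portal fibroblasts make most of the fibrillar collagen, endothelial cells contribute basement membrane proteins, and hepatocytes secrete the plasma forms of fibronectin and vitronectin. Integrins are dimers of an alpha and a beta chain that bind these proteins and couple them to the cytoskeleton, syndecans bind them through heparan sulfate chains, and matrix metalloproteinases, ADAMTS proteases and their TIMP inhibitors set how fast the matrix is turned over.

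A tag begins at a GATC, the site that DpnII cuts, and the tag nearest the 3′ end of a transcript stands for its gene. The expected tags of 13 members with large or well counted differences or of their partner chains are shown, without that of Lama3, because these short sequences are all that is read from each messenger RNA. They were read from RefSeq-matched transcripts of the GENCODE M21 annotation as the last GATC, in capitals, and the next 16 bases.
Vtn: GATCctctgatggagccaga
Fn1: GATCaatagggaaacacagg
Itgav: GATCacccacattgggtgag
Itgb5: GATCtgattactggttccct
Itgb1: GATCctgtaactccgacgcc
Col1a1: GATCtctctctttcttctga
Col1a2: GATCcaactaagtctcctcc
Col4a1: GATCcaataaaagatgaatt
Col4a2: GATCtaccagccttggctca
Lamb3: GATCcgcagttacatcaatg
Sdc1: GATCacatggctggatgtga
Sdc3: GATCaggggttacctccctt
Mmp15: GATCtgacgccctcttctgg
All 53 members have at least 1 GATC, with 5 to 38 sites per transcript and a median of 14, so each could be measured by this method. For 52 of the 53, the last tag occurs in the transcripts of 1 gene. The exception is Mmp15, whose last tag occurs in transcripts of 86 genes. Itgb5, Col18a1, Col6a2 and Itga9 have transcripts that end in different last tags. The deposited values are summed per gene, so which tag was counted for a gene cannot be seen.

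Matrix genes were lower in the diabetic library more often than listed genes in general. The lower members included 6 of 10 integrin chains, 5 of the 7 collagens that are neither fibrillar nor type IV, Col4a1, and Vtn, while the higher ones included Col1a1, Col5a3, Lamb3 and Sdc1. Of the 53 members, 20 were at least 1.5-fold lower in the diabetic library, 37.7% against 15.3% of all listed genes. Another 11 were at least 1.5-fold higher, 20.8% against 34.4% of all listed genes. With the FDR, 11 members were lower, 20.8% against 8.19%, and 5 were higher, 9.43% against 22.9%. The median log2 ratio of the members was -0.27, which is -0.52 relative to the median of all listed genes, and 38 of the 53 lay below that median. After TMM scaling, which sets the libraries to a common centre, 26 members were lower and 6 higher, 49.1% against 23.7% and 11.3% against 24% of all listed genes. All 20 lower members and 6 of the 11 higher ones kept their call under each of 4 other scalings, and Col13a1, Lama5, Lamc1, Itga5, Itga9 and Adamts7 became lower under all 4. No test of the list as a whole was made. In bulk liver, fewer cells of a type and less RNA per cell cannot be told apart.

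**Figure D1:**
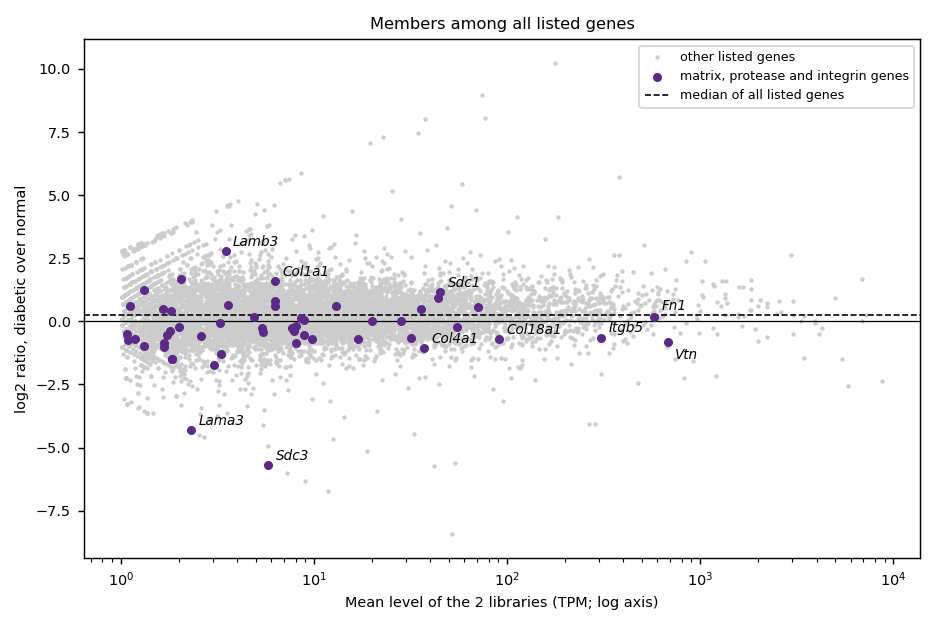
Mean level of the 2 libraries in TPM (log axis) against the log2 ratio, diabetic over normal, for the 53 members (purple) and the other listed genes (grey), with genes of 3 reads or fewer in a library set to 3 reads. The dashed line is the median of all listed genes, 0.25, and 38 of the 53 members lie below it.

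Summed over the 53 genes, the members took 2441 TPM (25090 reads) in the normal library against 1971 TPM (26625 reads) in the diabetic one. Vtn made up much of this difference, and the sums without it were 1568 TPM and 1482 TPM. The member reads per gene ranged from 8 to 8972 with a median of 51 in the normal library, and from 0 to 8253 with a median of 78 in the diabetic library. Among the well counted members, the median ratio lay nearer that of all listed genes, though still below it. The 15 members with a mean of at least 10 TPM had a median log2 ratio of 0.00, or -0.26 relative to all listed genes. Of the 15, 10 lay below the median of all listed genes. By fold 3 were higher and 6 lower, beside 34.4% and 15.3% of all listed genes, and all 9 of these calls also passed the FDR. The 24 members with a mean under 5 TPM had a median of -0.52, or -0.77 relative to all listed genes. Of these 24, 5 were higher and 11 lower, of which 1 and 3 passed the FDR. The interval lay below 0 for 15 of the 20 lower members and above 0 for 9 of the 11 higher ones.

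**Figure D2:**
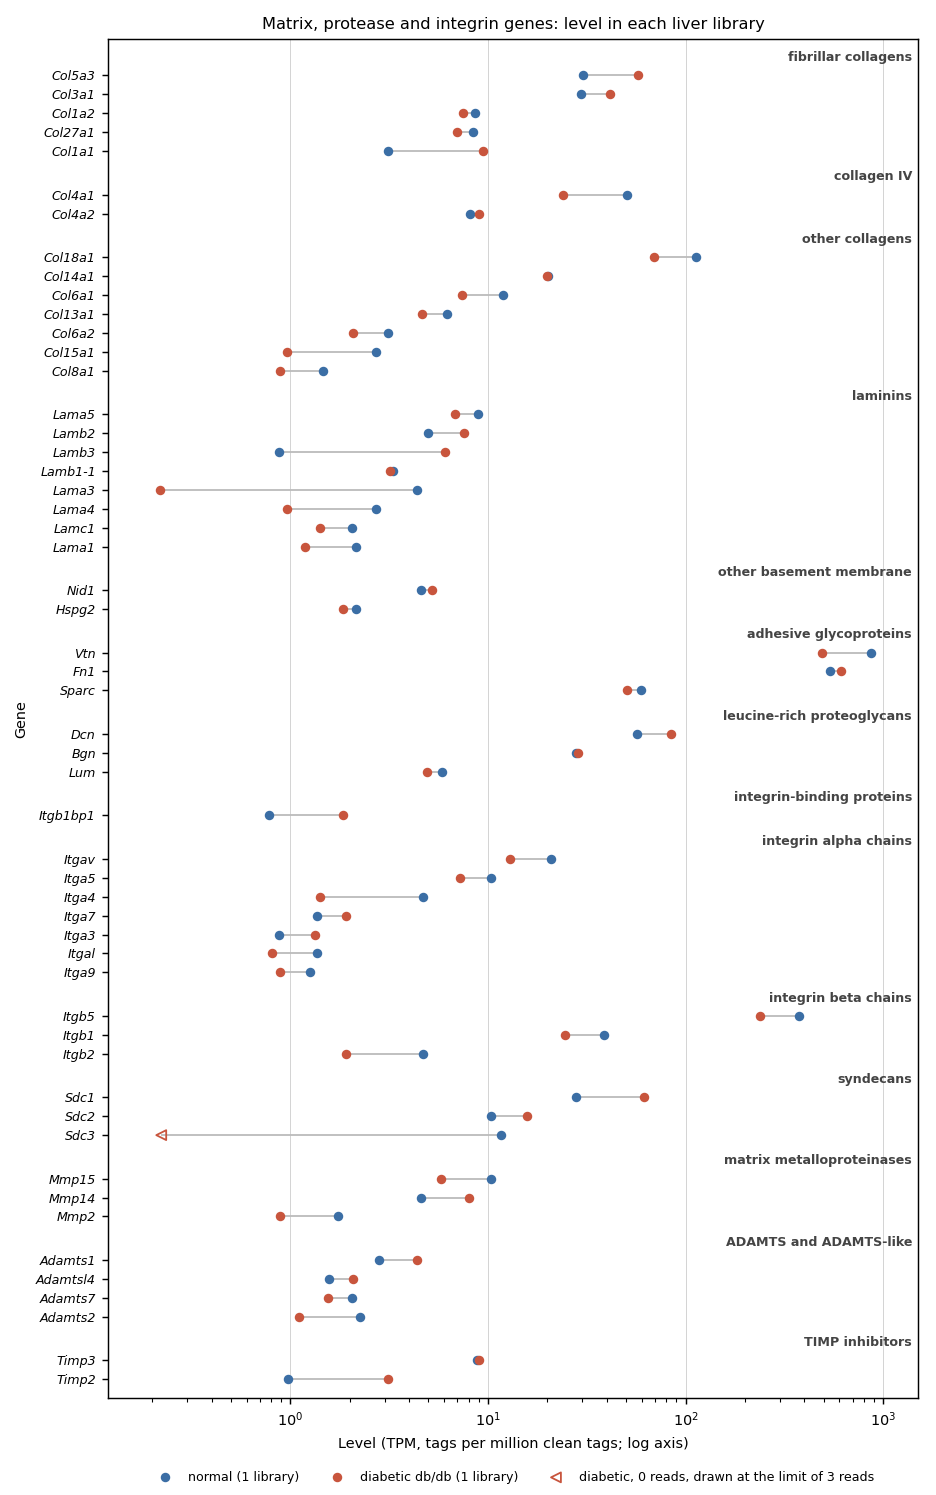
Level of each of the 53 members in the normal (blue) and the diabetic (red) library in TPM on a log axis, grouped by family, 1 library per group. Vtn, Fn1 and Itgb5 are the most abundant, and Sdc3, with 0 reads in the diabetic library, is drawn there as an open triangle at the limit of 3 reads.

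Vitronectin and fibronectin, the adhesive glycoproteins that hepatocytes release into plasma, were the most abundant members and went apart. Vtn, which encodes vitronectin, was 873 TPM (8972 reads) in the normal and 489 TPM (6610 reads) in the diabetic library. It was thus 1.78-fold lower, a log2 ratio of -0.83 with an interval of -0.88 to -0.79, and passed the FDR. Fn1, which encodes fibronectin, was 539.6 TPM (5546 reads) and 611 TPM (8253 reads), a log2 ratio of 0.18 with an interval of 0.13 to 0.23. That difference is above 0 in these libraries but below the 1.5-fold call, and it is -0.07 relative to the median of all listed genes. Within the normal library there were 1.62 Vtn reads for each Fn1 read, and within the diabetic library 0.801, a ratio of ratios of 0.495 with an interval of 0.472 to 0.519. Such a within-library ratio does not depend on how the libraries were scaled. Sparc, the collagen-binding protein also called osteonectin, was 59.4 TPM and 50.8 TPM, a log2 ratio of -0.22, and was not called.

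Among the 10 integrin chains listed, 6 were at least 1.5-fold lower and 1 was higher, with 5 lower and 0 higher by the FDR, and 8 lower and 0 higher by fold after TMM scaling. Their median log2 ratio was -0.66, or -0.91 relative to all listed genes, and their summed level was 460 TPM in the normal and 292 TPM in the diabetic library. Itgb5, the beta chain that pairs with the alpha V chain, carried most of this sum. It was 376 TPM (3865 reads) in the normal and 239 TPM (3226 reads) in the diabetic library, 1.57-fold lower with a log2 interval of -0.72 to -0.59. Itgav, the alpha V chain itself, was 20.9 TPM (215 reads) and 13.0 TPM (175 reads), 1.61-fold lower with an interval of -0.99 to -0.40. Together they form a receptor for vitronectin, and the ligand gene and both chain genes were lower. The log2 interval of Vtn, -0.88 to -0.79, did not overlap that of Itgb5. A link between ligand and receptor levels was not tested. The number of Itgav reads per Itgb5 read was 0.0556 in the normal and 0.0542 in the diabetic library, a ratio of ratios of 0.975 with an interval of 0.790 to 1.203, so a difference between the chains was not detectable at this depth.

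The beta 1 chain, the common partner of most matrix-binding alpha chains, was lower as well. Itgb1 was 38.7 TPM (398 reads) in the normal and 24.4 TPM (330 reads) in the diabetic library, 1.58-fold lower with a log2 interval of -0.88 to -0.45. Its partner in the fibronectin receptor, Itga5, was 10.4 TPM and 7.25 TPM, a log2 ratio of -0.52 with an interval of -0.93 to -0.11, short of the 1.5-fold call. Itga5 reads per Itgb1 read gave a ratio of ratios of 1.104 with an interval of 0.800 to 1.52. Itga4, the alpha chain of a leukocyte receptor that also pairs with beta 1, was 4.67 TPM (48 reads) and 1.41 TPM (19 reads), 3.31-fold lower. Its ratio to Itgb1 differed between the libraries by a factor of 0.478, with an interval of 0.260 to 0.847. Itgb2, the beta chain of leukocytes, was 4.67 TPM (48 reads) and 1.92 TPM (26 reads), 2.43-fold lower with an interval of -2.03 to -0.56.

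The remaining alpha chains were low. Itgal, the partner of Itgb2, was 1.36 TPM and 0.81 TPM, and Itga9 was 1.26 TPM and 0.89 TPM. Itga3, which encodes a laminin-binding alpha chain, was 0.88 TPM and 1.33 TPM, called higher by fold on 9 and 18 reads with an interval of -0.62 to 1.94, and the call was lost under all 4 other scalings. Itga7, another laminin-binding chain, was 1.36 TPM and 1.92 TPM and was not called. The name rule also took Itgb1bp1, which encodes a cytoplasmic protein that binds the beta 1 tail and is neither an integrin nor a matrix protein. It was 0.78 TPM (8 reads) in the normal and 1.85 TPM (25 reads) in the diabetic library, 2.37-fold higher without passing the FDR.

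Leukocyte and macrophage genes moved beside these leukocyte integrins. Of 17 Kupffer cell and macrophage markers, 13 were listed. Of these, 7 were at least 1.5-fold lower and 1 was higher, beside 15.3% and 34.4% of all listed genes. Their summed level was 588 TPM in the normal and 398 TPM in the diabetic library. C1qa, a complement gene of macrophages, was 176 TPM and 50.7 TPM and made up much of this difference. C1qb, which encodes another chain of the same complex, was 38.1 TPM and 57.8 TPM, a higher call that was lost under all 4 other scalings. The other 5 listed markers were not called. They include the most abundant one, Slc40a1, at 195 TPM and 174 TPM, and Cd5l, at 64.7 TPM and 62.9 TPM. No listed marker was at 0, and Emr1, which encodes the F4/80 antigen, was 8.95 TPM and 4.37 TPM. Of 13 lymphocyte markers, 3 were listed, with summed levels of 7.30 TPM and 5.32 TPM. The part of these cells in the integrin values was not tested.

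**Figure D3:**
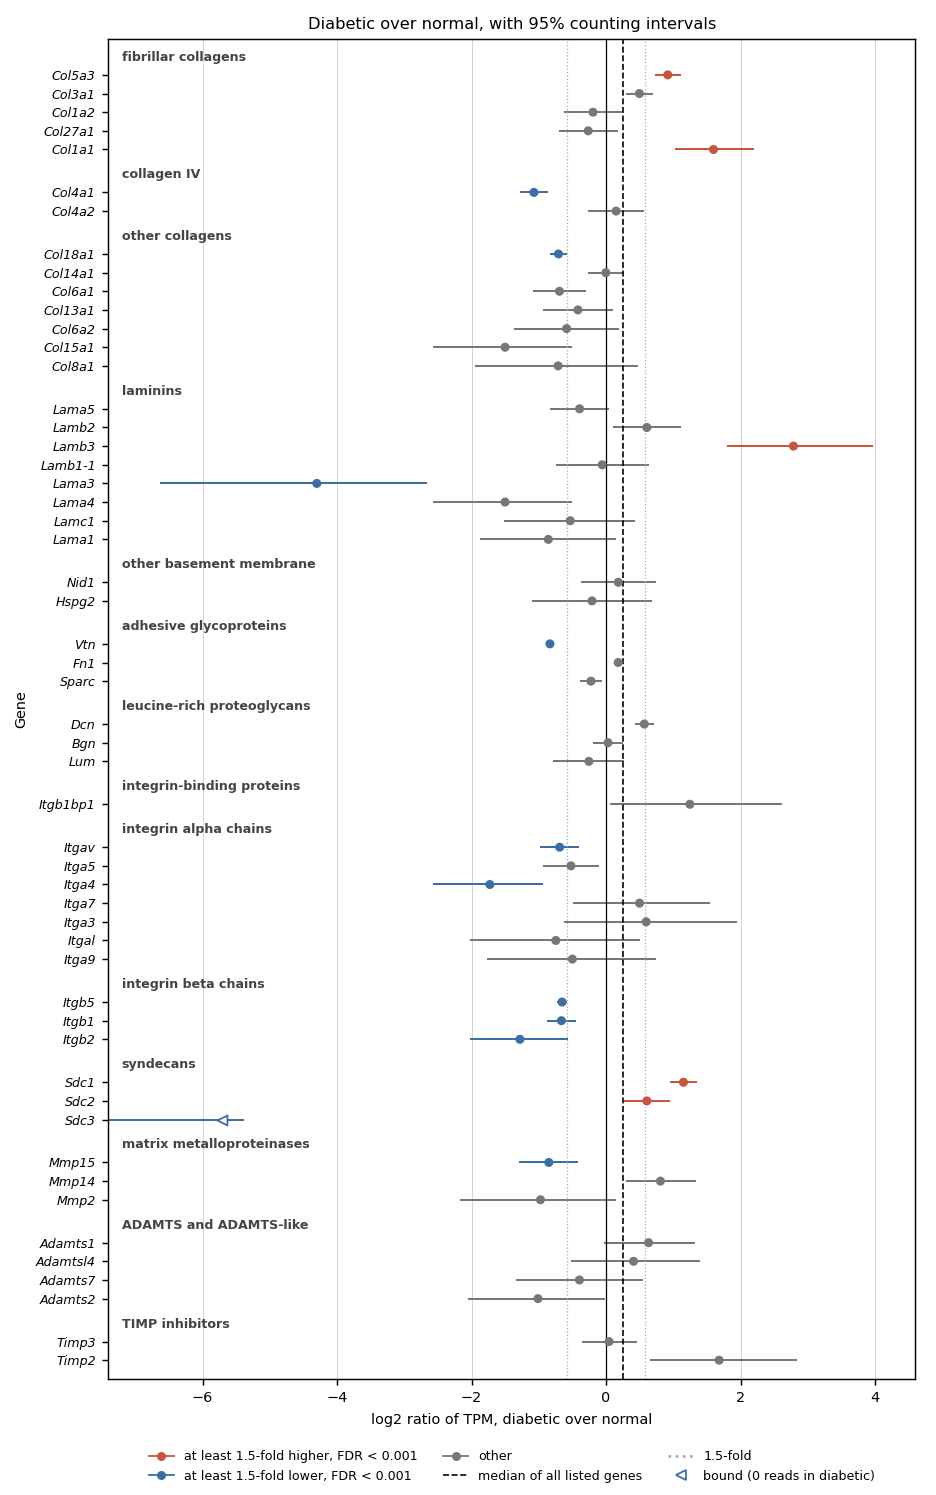
log2 ratio of TPM, diabetic over normal, of each member with its 95% counting interval, coloured where the member was at least 1.5-fold higher (red, 5 members) or lower (blue, 11 members) with an FDR under 0.001. The dashed line is the median of all listed genes, 0.25, dotted lines mark 1.5-fold, and the open triangle for Sdc3 is a bound.

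Fibrillar collagens, which form the tensile fibres of scar and portal matrix, included 2 of the 5 members called higher with the FDR. Of 5 listed, these 2 were higher, near the 34.4% of all listed genes called higher by fold, and 0 were lower, with a median log2 ratio of 0.49 and summed levels of 80.0 TPM and 123 TPM, and the calls were 2 and 0 after TMM scaling as well. Col1a1, the alpha 1 chain of type I collagen, was 3.11 TPM (32 reads) in the normal and 9.40 TPM (127 reads) in the diabetic library, 3.02-fold higher with a log2 interval of 1.03 to 2.20. Its partner Col1a2, the alpha 2 chain of the same trimer, was 8.56 TPM (88 reads) and 7.48 TPM (101 reads), a log2 ratio of -0.19 with an interval of -0.62 to 0.23. There were thus 0.364 Col1a1 reads per Col1a2 read in the normal and 1.26 in the diabetic library, a ratio of ratios of 3.45 with an interval of 2.09 to 5.79.

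Col5a3, a chain of type V collagen, which associates with type I fibres, was the most abundant fibrillar collagen gene listed. It was 30.4 TPM (312 reads) and 57.3 TPM (774 reads), 1.89-fold higher with an interval of 0.73 to 1.11. Col3a1, the type III chain, was 29.6 TPM (304 reads) and 41.7 TPM (563 reads), a log2 ratio of 0.49 with an interval of 0.29 to 0.70, which does not reach the 1.5-fold call. Col27a1 was 8.37 TPM and 6.96 TPM and was not called.

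Type IV collagen, the network collagen of basement membranes, showed unequal values for its chains. Col4a1 was 50.3 TPM (517 reads) in the normal and 23.9 TPM (323 reads) in the diabetic library, 2.10-fold lower with a log2 interval of -1.28 to -0.87. Col4a2 was 8.08 TPM (83 reads) and 8.96 TPM (121 reads), a log2 ratio of 0.15 with an interval of -0.27 to 0.57. Col4a1 reads per Col4a2 read were 6.23 in the normal and 2.67 in the diabetic library, a ratio of ratios of 0.429 with an interval of 0.310 to 0.592. The genes lie head to head on chromosome 8 and share a promoter region: in GRCm38.p6 their RefSeq starts are 21 bases apart. Their promoter windows, from 250 bases before to 50 bases after each start, overlap by 78 bases, and no other pair among the 38 members with a window overlaps.

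The 7 other collagens were all at or below a log2 ratio of 0.00, with 5 lower by fold and 1 by the FDR. Col18a1, whose C-terminal fragment is endostatin and which hepatocytes and vessel walls make, was the most abundant collagen gene listed. It was 112 TPM (1156 reads) and 68.9 TPM (930 reads), 1.63-fold lower with an interval of -0.83 to -0.58. Col6a1 and Col6a2, chains of the microfibrillar type VI collagen, were 11.97 TPM and 7.40 TPM, and 3.11 TPM and 2.07 TPM. They kept nearly the same proportion, 3.84 Col6a1 reads per Col6a2 read in the normal and 3.57 in the diabetic library, with a ratio of ratios of 0.929 and an interval of 0.504 to 1.72. Col15a1, a basement membrane collagen of vessels, was 2.72 TPM (28 reads) and 0.96 TPM (13 reads), and Col8a1 was 1.46 TPM and 0.89 TPM. Col14a1, which decorates collagen fibrils, was 20.0 TPM in both libraries, and the membrane collagen Col13a1 was 6.23 TPM and 4.66 TPM.

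Laminins, the cross-shaped trimers of an alpha, a beta and a gamma chain that organise basement membranes, held large ratios in both directions. Of 8 listed, 3 were lower and 2 higher by fold, with 1 each by the FDR. Lama3 gave 4.38 TPM (45 reads) for normal and 0.22 TPM (3 reads) for diabetic liver. Its log2 ratio was -4.30 with an interval of -6.63 to -2.66. Lamb3, whose chain joins that of Lama3 in laminin-332 of epithelia, was 0.88 TPM (9 reads) and 6.07 TPM (82 reads), 6.90-fold higher with an interval of 1.799 to 3.97. There were thus 0.200 Lamb3 reads per Lama3 read among the normal tags and 27.3 among the diabetic tags, a ratio of ratios of 127 with an interval of 32.0 to 765. Both genes are low, and the level of each rests on under 100 reads in a library.

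The widely expressed laminin chains differed less. Lama5 was 8.95 TPM and 6.81 TPM, and Lamc1, its gamma partner, was 2.04 TPM and 1.41 TPM, with a ratio of ratios of 1.105 and an interval of 0.526 to 2.33. Lamb2 was 4.96 TPM (51 reads) and 7.55 TPM (102 reads), 1.52-fold higher by fold alone, and the call was lost under all 4 other scalings. Lamb1, listed as Lamb1-1, was 3.31 TPM and 3.18 TPM. Lama4, the alpha chain of vessel walls, was 2.72 TPM (28 reads) and 0.96 TPM (13 reads), and Lama1 was 2.14 TPM and 1.18 TPM; both were lower by fold without passing the FDR. Nid1, which links laminin to type IV collagen, was 4.57 TPM and 5.18 TPM, and Hspg2, the proteoglycan perlecan, was 2.14 TPM and 1.85 TPM, and neither was called. Over the 12 basement membrane genes, collagen IV, laminins, Nid1 and Hspg2, the summed level was 94.5 TPM in the normal and 67.3 TPM in the diabetic library. Col4a1 carried this difference, and the sums without it were 44.2 TPM and 43.4 TPM.

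**Figure D4:**
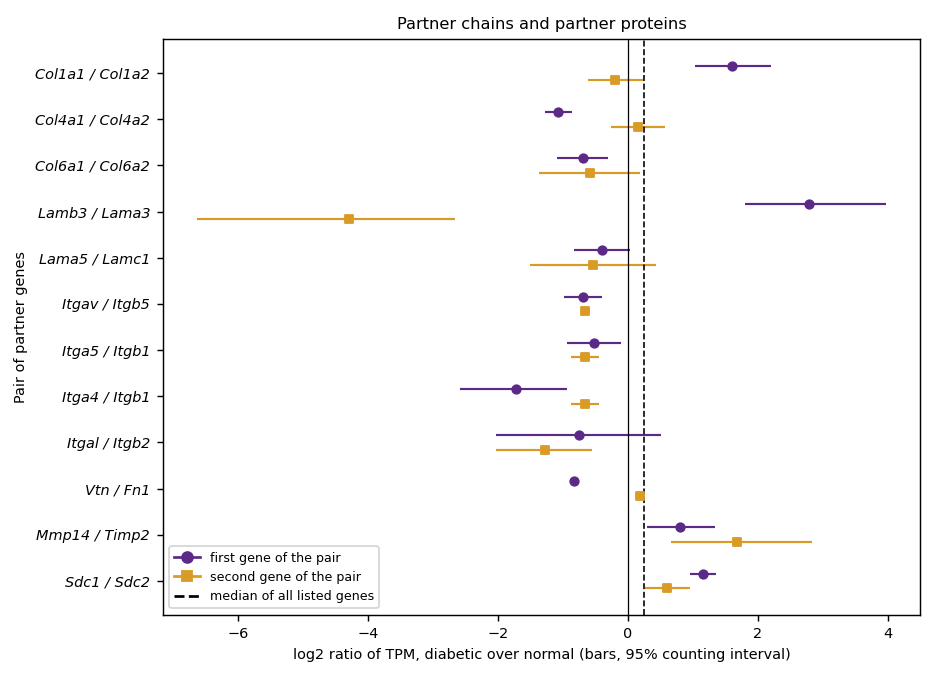
log2 ratio of TPM, diabetic over normal, for 12 pairs of partner genes, with circles for the first gene, squares for the second and bars for 95% counting intervals. The intervals do not overlap for Col1a1 and Col1a2, Col4a1 and Col4a2, Lamb3 and Lama3, Vtn and Fn1, and Itga4 and Itgb1. Those of the other pairs, Itgav and Itgb5 among them, do.

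Small leucine-rich proteoglycans, which coat collagen fibrils and bind growth factors, gave 0 calls among 3 genes. Dcn, decorin, was 56.9 TPM (585 reads) in the normal and 84.4 TPM (1140 reads) in the diabetic library, 1.48-fold higher and so just under the call, with a log2 interval of 0.42 to 0.71. Bgn, biglycan, was 28.0 TPM and 28.6 TPM, and Lum, lumican, was 5.84 TPM and 4.89 TPM. Dcn was thus the gene of the 3 whose interval did not include 0.

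Fibroblast-lineage markers were called in both directions beside these collagens and proteoglycans. Of 17 stellate cell and fibroblast markers, 11 were listed. By fold 3 were higher and 5 lower, beside 34.4% and 15.3% of all listed genes. After TMM scaling 1 was higher and 5 were lower, beside 24% and 23.7% of all listed genes. The median log2 ratio was 0.19, or -0.06 relative to all listed genes. Summed levels were 77.4 TPM in the normal and 79.5 TPM in the diabetic library. Tagln and Vim, cytoskeletal genes of activated mesenchymal cells, were higher, at 4.38 TPM and 9.03 TPM and at 18.9 TPM and 30.1 TPM, and the call of Vim was lost under all 4 other scalings. Acta2, the smooth muscle actin used as the usual marker of activation, was 4.86 TPM and 5.55 TPM and was not called. Pdgfra, a growth factor receptor of fibroblasts, was 5.45 TPM and 0.96 TPM, and Reln and Cygb, markers of quiescent stellate cells, were 12.8 TPM and 7.11 TPM, and 15.7 TPM and 9.62 TPM. Lrat, which makes the retinyl esters that quiescent stellate cells store, was 4.18 TPM and 6.0 TPM and was not called. Of 20 sinusoidal endothelial markers, 17 were listed. By fold 6 were lower and 2 higher, beside 15.3% and 34.4% of all listed genes, with 6 and 1 by the FDR. After TMM scaling 7 were lower and 2 higher. Of the 17, 15 lay below the median of all listed genes, and summed levels were 244 TPM and 204 TPM. No listed marker of either list was at 0. The part of these cells in the collagen and laminin values was not tested.

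Syndecans, the transmembrane heparan sulfate proteoglycans, had 3 genes listed, all of them called, in both directions. Sdc1, the main syndecan of hepatocytes and other epithelia, was 27.9 TPM (287 reads) in the normal and 62.0 TPM (837 reads) in the diabetic library, 2.22-fold higher with a log2 interval of 0.95 to 1.35. Sdc2 was 10.3 TPM (106 reads) and 15.7 TPM (212 reads), 1.52-fold higher with an interval of 0.26 to 0.96, and the call was lost under all 4 other scalings. Within the libraries, Sdc1 reads per Sdc2 read were 2.71 and 3.95, a ratio of ratios of 1.46 with an interval of 1.102 to 1.92. Sdc3, a syndecan known from nerve and muscle, was 11.6 TPM (119 reads) in normal liver and had 0 reads in diabetic liver. Against the limit of 3 reads, 0.222 TPM, it was at least 52.1-fold lower, and its 95% log2 interval, which covers the counting error of both libraries, reached up to -5.38.

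The hepatocyte markers that define the tissue were present in both libraries. Of 13 hepatocyte markers, 9 were listed, with 3 higher and 2 lower, so their levels were not alike. Alb, which encodes albumin, was 6801 TPM in the normal and 6912 TPM in the diabetic library and was not called. Lower were Apob, at 804 TPM and 147 TPM, and Hnf4a, at 96.8 TPM and 46.2 TPM. Higher were Cps1, at 130 TPM and 317 TPM, Cyp3a11, at 937 TPM and 2377 TPM, and Pck1, at 668 TPM and 2047 TPM. Of 10 cholangiocyte markers, 4 were listed, and Spp1, which encodes osteopontin, an integrin ligand, was 57.2 TPM and 103 TPM. Of 6 platelet and megakaryocyte markers, Pf4 alone was listed, with 2 normal and 29 diabetic reads. Its log2 ratio was 2.88, with an interval of 1.48 to 6.58.

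Matrix proteases and their inhibitors were few and low. Of 9 listed, 3 were higher and 3 lower by fold, with 0 and 1 by the FDR and 1 and 4 after TMM scaling, and their summed level was 35.1 TPM in the normal and 35.9 TPM in the diabetic library. Mmp14, the membrane-type metalloproteinase that activates Mmp2 at the cell surface, was 4.57 TPM (47 reads) and 8.0 TPM (108 reads), 1.75-fold higher with an interval of 0.30 to 1.33, and the call was lost under all 4 other scalings. Mmp15, another membrane-type metalloproteinase, was 10.4 TPM (107 reads) and 5.77 TPM (78 reads), 1.804-fold lower with an interval of -1.29 to -0.42. Its value is uncertain because its last tag, shown above, is shared with transcripts of other genes. Mmp2, gelatinase A, was 1.75 TPM (18 reads) and 0.89 TPM (12 reads), and its interval of -2.17 to 0.15 spans 0.

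Timp2, which binds both Mmp14 and Mmp2, was 0.97 TPM (10 reads) in the normal and 3.11 TPM (42 reads) in the diabetic library, 3.21-fold higher with an interval of 0.66 to 2.84, and missed the FDR. Mmp14 reads per Timp2 read were 4.70 and 2.57, a ratio of ratios of 0.549 with an interval of 0.226 to 1.23, so no difference between them was detectable at this depth. Timp3, the inhibitor that binds to the matrix, was 8.76 TPM and 9.03 TPM. The ADAMTS family gave 1 higher and 1 lower of 4 by fold and 0 by the FDR. Adamts1, a proteoglycan-cleaving protease, was 2.82 TPM and 4.37 TPM, and Adamts2, which trims the N-terminal propeptide of procollagen, was 2.24 TPM and 1.11 TPM. Adamts7 was 2.04 TPM and 1.55 TPM, and Adamtsl4, which has no protease domain, was 1.56 TPM and 2.07 TPM.

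Genes that fold, modify and cross-link collagen were called in both directions. Of 32 such genes, 17 were listed, with 5 higher and 5 lower by fold, and 4 and 4 by the FDR. After TMM scaling, 3 were higher and 6 lower. Among all listed genes, 34.4% were higher and 15.3% lower by fold, and 24% and 23.7% after TMM scaling. The median log2 ratio of the list was 0.13, or -0.13 relative to all listed genes. P4hb, the protein disulfide isomerase that is also a subunit of prolyl 4-hydroxylase, was 278 TPM in the normal and 736 TPM in the diabetic library. P4ha1, a catalytic subunit of the same enzyme, was 16.2 TPM and 5.63 TPM, a log2 ratio of -1.52, while P4ha2, an alternative catalytic subunit, was 2.33 TPM and 3.11 TPM and was not called. The collagen chaperone Serpinh1, known as HSP47, was 8.37 TPM and 2.29 TPM, and Crtap, part of a prolyl 3-hydroxylase complex, was 7.30 TPM and 1.70 TPM. Glt25d1, a collagen galactosyltransferase, was 14.8 TPM and 29.8 TPM, and Bmp1, which cleaves the C-terminal propeptide, was 11.9 TPM and 20.3 TPM, a call lost under all 4 other scalings.

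Other matrix glycoproteins and proteoglycans had a median log2 ratio of -0.28 over 22 listed of 50, with 4 higher and 8 lower by fold, 4 and 4 by the FDR, and 4 and 10 after TMM scaling. Higher were Postn, which encodes periostin, at 2.92 TPM and 10.7 TPM, Omd at 4.77 TPM and 15.0 TPM, and the calcium-binding matrix protein Smoc1 at 16.4 TPM and 38.6 TPM. Lower were Prelp at 11.6 TPM and 3.41 TPM, Smoc2, a relative of Smoc1, at 6.42 TPM and 2.07 TPM, and Tnxb, which encodes tenascin-X, at 3.70 TPM and 1.33 TPM. The related Smoc1 and Smoc2 thus stood on opposite sides.

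Of 35 other proteases and inhibitors, 21 were listed, with 4 higher and 5 lower by fold, 3 and 4 by the FDR, 3 and 10 after TMM scaling, and a median of -0.12. Reck, a membrane inhibitor of metalloproteinases, was 4.28 TPM and 0.89 TPM, Serpine2, a thrombin and plasminogen activator inhibitor, was 4.57 TPM and 1.18 TPM, and Serpinf2, the plasmin inhibitor of plasma, was 332.05 TPM and 138 TPM. The proprotein convertases Pcsk5 and Pcsk6 were higher, at 0.58 TPM and 4.44 TPM and at 25.2 TPM and 62.4 TPM, as was the membrane protease Adam9, at 40.1 TPM and 89.5 TPM.

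The 28 TGF-beta and CCN signalling genes include repressors of the pathway, such as Smad7 and Ski, so their median has no single meaning for matrix synthesis. Of these genes, 19 were listed, with 9 higher and 4 lower by fold, 2 and 2 by the FDR, 4 and 4 after TMM scaling, and a median of 0.43. Ctgf, a matricellular protein induced by TGF-beta, was 2.04 TPM and 5.70 TPM, and the receptor Tgfbr1 was 2.72 TPM and 7.33 TPM. Smad4, the common mediator of the pathway, was 11.97 TPM and 2.37 TPM, and Bmp4, a ligand of the related BMP receptors, was 17.4 TPM and 2.07 TPM. The ligand gene Tgfb1 was 5.16 TPM and 3.18 TPM, lower by fold without passing the FDR. Tgfbr1 and Smad4 were thus on opposite sides. The mediators Smad2, at 1.17 TPM and 2.37 TPM, and Smad3, at 1.46 TPM and 2.22 TPM, were higher by fold without passing the FDR. So was the receptor gene Tgfbr2, at 2.63 TPM and 4.59 TPM. The calls of Smad3 and Tgfbr2 were lost under all 4 other scalings, and that of Smad2 was kept.

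Integrin adaptors and adhesion linkers connect integrin tails to actin and to kinases. On the deposited scale they were called higher more often than lower, as were all listed genes, with 34.4% higher and 15.3% lower. Of 33, 26 were listed, with 7 higher and 2 lower by fold, 6 and 1 by the FDR, 6 and 5 after TMM scaling, and a median of 0.19, close to that of all listed genes. Ptk2, focal adhesion kinase, was 5.06 TPM and 10.8 TPM, Rsu1 was 11.6 TPM and 25.7 TPM, and Tns3, a tensin that binds beta chains, was 3.89 TPM and 9.48 TPM. Pxn, paxillin, was 22.7 TPM and 13.0 TPM. Whether the chains and the adaptors differed as groups was not tested.

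Of 24 other matrix receptors and glypicans, 15 were listed, with 4 higher and 3 lower by fold, 4 and 2 by the FDR, 4 and 6 after TMM scaling, and a median of -0.11. Bsg, basigin, an inducer of metalloproteinases, was 139.7 TPM and 435 TPM, the glypican Gpc1 was 1.85 TPM and 5.77 TPM, and the integrin-associated tetraspanin Cd151 was 4.96 TPM and 11.3 TPM. The collagen uptake receptor Mrc2 was 14.1 TPM and 8.22 TPM, and Lgals3bp was 32.4 TPM and 20.1 TPM. Of 26 genes of heparan sulfate and hyaluronan synthesis, 16 were listed, with 4 higher and 3 lower, all by the FDR as well, 4 and 5 after TMM scaling, and a median of 0.04. Ext1 and Ext2, the subunits of the polymerase that builds the heparan sulfate chains of syndecans, were 109.7 TPM and 64.7 TPM, and 81.9 TPM and 51.2 TPM. B3gat3, which completes the linker of those chains, was 59.5 TPM and 33.9 TPM. Ugdh, which makes the UDP-glucuronate they need, was 66.9 TPM and 231 TPM, while the low genes Extl1 and Hs2st1 rested on 8 and 63 reads and on 3 and 25 reads. Of the other listed genes of the linker, Xylt2 was 8.27 TPM and 8.37 TPM, B3galt6 was 1.07 TPM and 1.11 TPM, and B4galt7 was 1.85 TPM and 1.26 TPM, and none of these 3 was called. Hs6st1, a sulfotransferase of heparan sulfate, was 52.15 TPM (536 reads) and 107.8 TPM (1456 reads), a higher call kept under all 4 other scalings. Both polymerase genes and B3gat3 were thus lower, and the sugar donor gene and Hs6st1 higher, in the diabetic library.

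**Figure D5:**
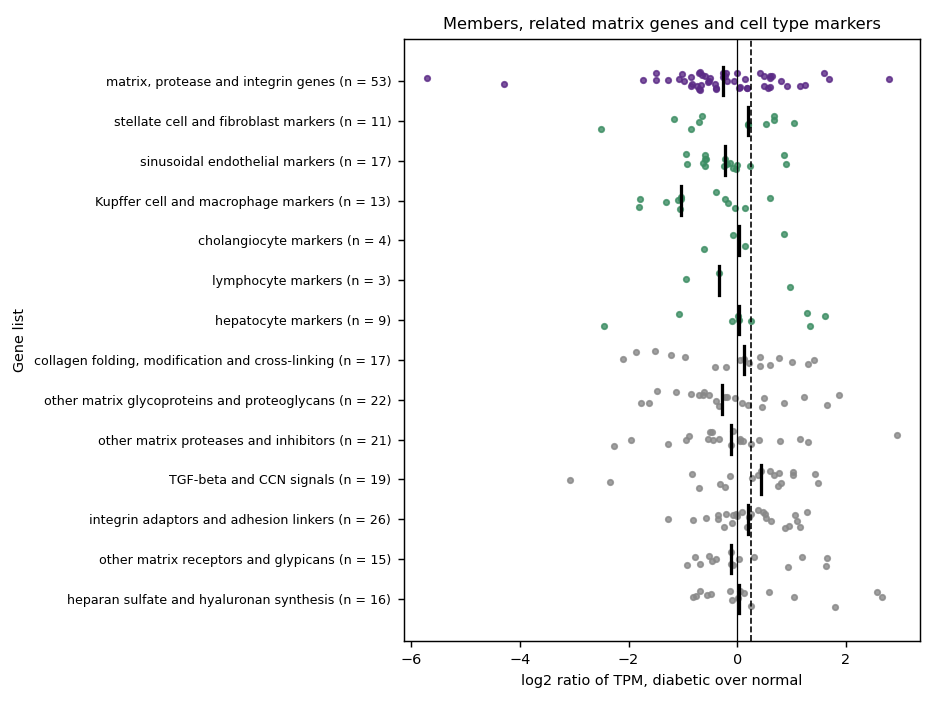
log2 ratio of TPM, diabetic over normal, of the 53 members (purple), of cell type markers (green) and of related matrix genes (grey), 1 point per listed gene, with a black bar at the median of each list and a dashed line at the median of all listed genes, 0.25. The median is -0.27 for the members, -1.03 for the Kupffer cell and macrophage markers and 0.43 for the TGF-beta and CCN signals.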

How the data were processed

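Livers of male mice, 1 library per group, were profiled by tags of DpnII-digested cDNA made from poly(A) RNA. Groups were taken from the labels. The authors removed adaptors, kept clean tags and compared them with RefSeq. The submitters' notes name the build mm9, and the aligner, the mismatches allowed and the treatment of shared tags are not given in the sources used here. The deposited values, called TPM, are RPM values, that is tags per 1000000 clean tags, with 0.01 written where a gene had no tag and genes with a mean under 1 TPM left out. No other sample columns were present.

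Reads were computed from the equal steps of the values (8513 of 8513 values whole in the normal and 8536 of 8537 in the diabetic library, within 0.006 TPM). Fold changes used the deposited values, with genes of 3 reads or fewer in a library set to 3 reads. The FDR is Benjamini-Hochberg adjusted over 8551 genes from an exact binomial test, two-sided, of each gene's reads. Intervals are Clopper-Pearson, and those of ratios of ratios are conditional odds ratio intervals. Reads share no molecular identifiers, and counting error is all that intervals and limits cover. The scripts were tested on simulated data (Python 3.11.15, with scipy 1.17.1, numpy 2.4.6, matplotlib 3.10.9 and pandas 2.3.3).

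The members, families, pairs and marker and pathway lists were chosen with earlier results of these data known. Named with values were all members called with FDR, those whose mean reached 5 TPM, and Itgb1bp1, with the remaining members by family. Of each pathway list, the 3 genes with the largest fold in each direction among those with FDR were named. Marker genes, P4ha2, Tgfb1, Tgfbr2, Smad2, Smad3, Hs6st1, Xylt2, B3galt6 and B4galt7 were named after their values were seen. Reln, Spp1 and Stab1 stand in 2 lists each. All members matched RefSeq names by Entrez identifier. Protein sequences are not printed. Alternatives were 4 scalings, 2 pseudocounts, a higher minimum level, a 2-fold threshold, the Audic-Claverie test and leaving out Itgb1bp1.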

Additional observations from a re-analysis of the deposited data

How the results depend on the processing

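The number of members at least 1.5-fold higher, 11, was 6 under each of the 4 scalings (sum of the listed genes, TMM, median ratio, upper quartile), 7 with a pseudocount of 1 TPM, 6 at a mean of at least 5 TPM and 5 at 2-fold. The number lower, 20, was 9 at a mean of at least 5 TPM and 8 at 2-fold, and 26 under each scaling. With the FDR, the 5 higher became 3 and the 11 lower became 5 at 2-fold. The median log2 ratio of the members, -0.27, was -0.53 with the sum of the listed genes, -0.52 with TMM, -0.57 with the median ratio and -0.53 with the upper quartile. These scalings lower every ratio by construction, and the minimum level and the 2-fold threshold leave fewer genes that can pass. The Audic-Claverie test called 4 higher and 12 lower. No member changed direction among its calls under a scaling or a pseudocount. No paired analysis was possible because each group has 1 library. Depth limits the members with few reads: the count of 0 reads allows up to 0.292 TPM in the normal and 0.222 TPM in the diabetic library.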
